A study of Mus musculus with 8 samples.

Results

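The genes described here are 9 members of the Sox family of transcription factors, namely Sox4, Sox5, Sox6, Sox8, Sox9, Sox10, Sox11, Sox12 and Sox13. They were chosen by name, for their roles in epithelium and neural crest, out of 50143 genes counted by RNA sequencing. The choice was made with earlier results of these data known. All 9 were found in the count table by their GENCODE M21 symbols. The RNA came from 8 tumours that grew from Py230 cells, a line of mouse breast adenocarcinoma, injected into the mammary fat pad 4 of female C57BL/6 hosts. The obese group held 4 tumours from ovariectomized mice fed a high-fat diet with 60% of calories from fat (5.1 kcal/g), and the lean group 4 tumours from ovariectomized mice fed a regular diet with 10% (3.6 kcal/g). Ovariectomy at an age of 6 weeks, removal of the tumour on day 56 and the single cell line were common to both groups, so both groups lacked ovaries and every tumour descends from 1 line. The diets began 2 weeks after ovariectomy and had run for 6 weeks at the injection of tumour cells. The comparison asks which tumour genes differ between obese and lean hosts.

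Sox proteins bind DNA through the HMG box, a domain that fits into the minor groove and bends the helix. They are sorted by the likeness of that box. The SoxC group (Sox4, Sox11, Sox12) activates transcription in progenitor cells of many tissues, the SoxD group (Sox5, Sox6, Sox13) has no activation domain and acts as a partner of other factors, and the SoxE group (Sox8, Sox9, Sox10) governs neural crest, glia, melanocytes and cartilage. In the mammary gland of the mouse, Sox9 and Sox10 mark stem and progenitor cells of the epithelium. In cartilage, Sox5 and Sox6 act together with Sox9 on the collagen and aggrecan genes.

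The shared ancestry is visible in the coding sequence. The 60 coding bases printed here lie within the HMG box and begin at coding base 310 of Sox9. They are the stretch of Sox9 with the closest matches in the other 8 genes, read 5′ to 3′ from GENCODE M21 transcripts (GRCm38), with capitals at the 34 positions where all 9 carry the same base. They are shown because the 3 groups used throughout can be read from them.
Sox4: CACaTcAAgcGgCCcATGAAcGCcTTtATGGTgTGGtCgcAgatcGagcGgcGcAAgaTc
Sox11: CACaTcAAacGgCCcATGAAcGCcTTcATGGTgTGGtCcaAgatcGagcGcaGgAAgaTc
Sox12: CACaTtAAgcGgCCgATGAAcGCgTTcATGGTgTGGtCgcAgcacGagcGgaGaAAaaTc
Sox5: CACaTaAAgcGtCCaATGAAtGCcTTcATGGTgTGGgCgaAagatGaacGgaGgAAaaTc
Sox6: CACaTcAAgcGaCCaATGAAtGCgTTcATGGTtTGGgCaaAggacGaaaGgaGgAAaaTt
Sox13: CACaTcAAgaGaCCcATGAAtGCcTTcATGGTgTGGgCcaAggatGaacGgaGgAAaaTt
Sox8: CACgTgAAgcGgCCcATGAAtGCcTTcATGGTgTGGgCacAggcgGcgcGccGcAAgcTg
Sox9: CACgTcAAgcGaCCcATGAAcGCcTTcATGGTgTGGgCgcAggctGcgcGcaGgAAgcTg
Sox10: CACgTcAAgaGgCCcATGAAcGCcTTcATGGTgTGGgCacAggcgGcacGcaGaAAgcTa
Pairs from the same group had 49 to 53 of these 60 bases in common (9 pairs, median 53), and pairs from different groups 42 to 48 (27 pairs, median 45). The longest exact run shared by the chosen transcripts was 48 bases, between Sox4 and Sox11. Sox9 and Sox10 shared a run of 44 bases, and no pair from different groups shared more than 27. A read lying wholly inside such a run could not be told apart between its genes, and the read length is not given in the sources used here.

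Library totals ran from 25.7 to 66.7 M counts. Levels below are normalised CPM, counts per 1 M counts scaled by TMM factors. A listed 0 allows up to 3 counts, which is 0.0494 to 0.124 CPM. That limit covers counting error only. Log2 changes are obese minus lean with a standard error (SE), tested by edgeR's quasi-likelihood F test across 14887 genes with Benjamini-Hochberg adjustment, and a gene rose or fell where the adjusted p was under 0.05. The labels do not say that the tumours of a group came from separate animals, so p-values measure the spread between these tumours, which may be technical. Obese replicate 3 stood apart from the other obese tumours. Its luminal progenitor markers summed to 2433 CPM, of which Csn3 was 2064 CPM, against 30.3 to 124 CPM in the other obese tumours. Results that rest on obese replicate 3 are given with and without it. The tumours were bulk tissue, in which fewer cells of a type and less RNA per cell cannot be told apart.

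Tumours of obese mice held little RNA of most of these genes. Of the 8 members tested, 6 fell (Sox6, Sox8, Sox9, Sox10, Sox12 and Sox13) and Sox5 rose, while Sox4 missed the threshold and Sox11 was too scarce to be tested. Over all tested genes 59.2% passed, 30.9% higher and 28.4% lower in obese tumours. The median log2 change was −3.53 over the 8 members and −0.04 over all tested genes. Obese and lean tumours did not overlap in 6 members lower in obese tumours (Sox4 in place of Sox9) and in Sox5, which was higher, where 28.1% and 28.9% of tested genes had no overlap in these directions, 57.0% in all. Sox6, Sox8, Sox10 and Sox12 reached the minimum of 0.210 CPM in all 4 lean tumours but in only 1 or 2 obese tumours, so they entered the test through the lean group and could hardly have come out otherwise than lower. Sox4, Sox5, Sox9 and Sox13 reached it in all 8 tumours. Without obese replicate 3, 7 members fell, the median was −5.54, and Sox5 still rose.

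**Figure D1:**
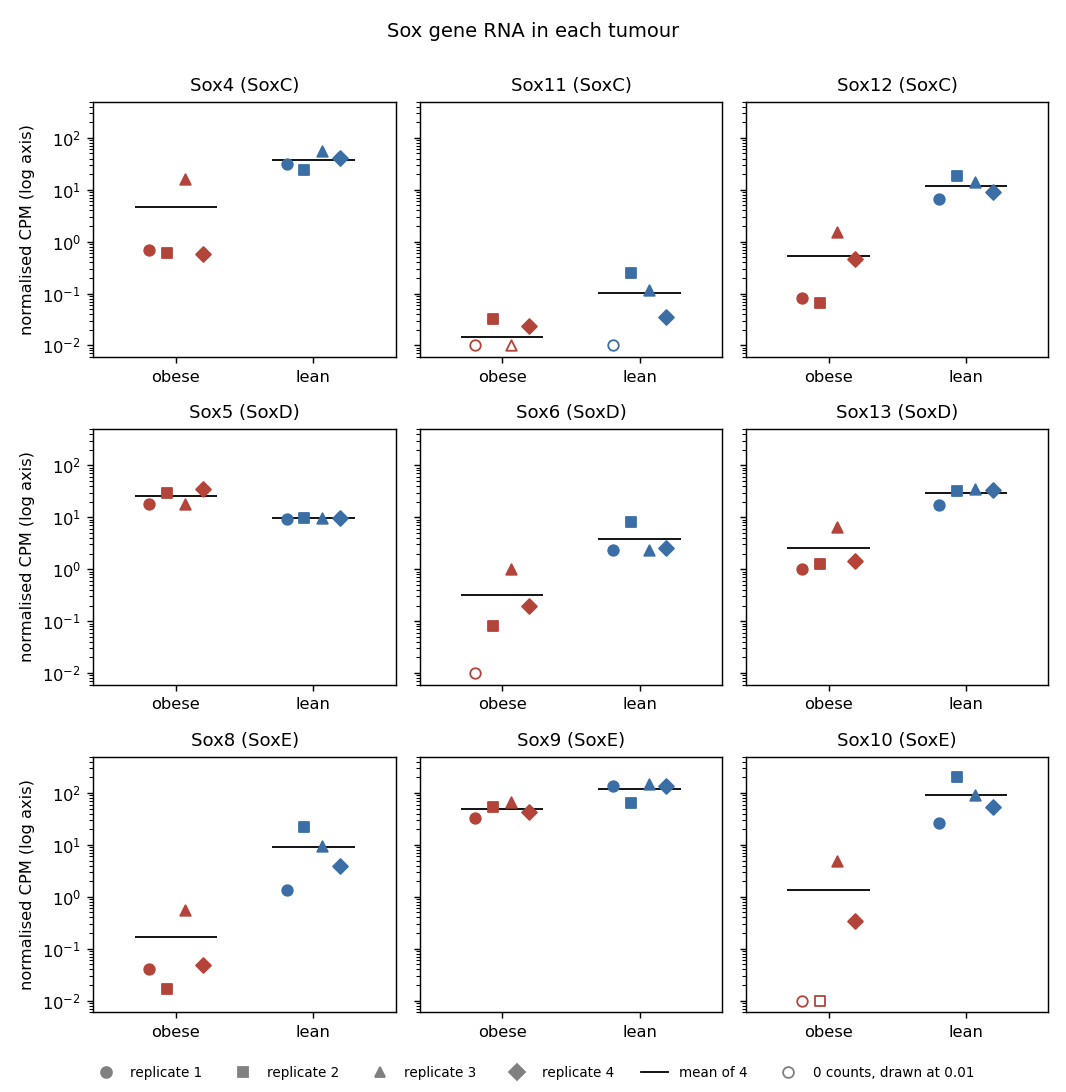
Normalised CPM (log axis) of each Sox gene in the 4 obese tumours (red, left) and the 4 lean tumours (blue, right); symbols mark the replicate, lines the group means, and open symbols counts of 0 drawn at 0.01. Obese replicate 3 (triangle) lies above the other obese tumours for Sox4, Sox6, Sox8, Sox9, Sox10, Sox12 and Sox13, and Sox5 is the only panel in which all obese tumours lie above all lean ones.

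Sox9 and Sox10 were the most abundant members per length in lean tumours, and the SoxE genes fell by unequal amounts. Sox10, which specifies glia and melanocytes from the crest and is found in basal and progenitor cells of the mammary gland (ENSMUSG00000033006, GRCm38 chromosome 15, 79154908 to 79165240), stood at 0, 0, 4.99 and 0.336 CPM in obese replicates 1 to 4 and at 25.9, 202, 91.4 and 53.3 CPM in lean replicates 1 to 4. Obese replicates 1 and 2 had no Sox10 read, and the highest obese tumour was at 0.193 of the lowest lean one. The group means were 1.33 ± 2.44 CPM in obese and 93.3 ± 77.6 CPM in lean tumours (SD, n = 4 each), a log2 change of −6.09 ± 1.73 (edgeR adjusted p = 0.0181), or −9.63 without obese replicate 3. Sox8, an often redundant partner of Sox9 and Sox10 (chromosome 17, 25565892 to 25570686), stood at 0.0413, 0.0165, 0.561 and 0.048 CPM in obese and 1.38, 22.1, 9.37 and 3.85 CPM in lean replicates 1 to 4. Every obese tumour was below every lean one, with 1 or 2 reads in obese replicates 1, 2 and 4. Its log2 change was −5.70 ± 1.35 (edgeR adjusted p = 0.00869), or −8.01 without obese replicate 3 and −4.79 without lean replicate 2, the lean tumour with most Sox8. An antisense RNA gene, 2810468N07Rik, shares 329 exon bases with Sox8 and also fell, to 0.767 ± 1.31 CPM in obese tumours, against 15.8 ± 6.94 CPM in lean tumours (−4.34 ± 1.28, edgeR adjusted p = 0.0205). It stood at 0.165, 0.033, 2.73 and 0.144 CPM in obese replicates 1 to 4. Only replicate 3 reached the minimum of 0.210 CPM. The antisense gene thus entered the test through the lean group and could hardly have come out otherwise than lower. The library kit kept strand, but the strand setting of the counting is not given in the sources used here, so reads of the shared bases, out of 3118 exon bases of Sox8, cannot be told apart.

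Sox9, a regulator of cartilage, of hair follicle and of epithelial progenitors (ENSMUSG00000000567, chromosome 11, 112782224 to 112787760), was the best retained of the genes that fell. It stood at 32.5, 54.6, 66.9 and 42.6 CPM in obese and 136, 64.7, 149 and 137 CPM in lean replicates 1 to 4. The groups overlapped, since obese replicate 3 lay just above lean replicate 2, the tumour in which Sox10 and Sox8 were highest. The means were 49.2 ± 14.9 CPM in obese and 122 ± 38.6 CPM in lean tumours (SD, n = 4 each), a log2 change of −1.31 ± 0.31 (edgeR adjusted p = 0.00880), and −1.52 without lean replicate 2. Scaled to exon length, Sox9 averaged 11.9 CPM per kb in obese and 29.5 in lean tumours, and Sox10 averaged 0.436 in obese and 30.6 in lean tumours. These 2 genes were thus about level per length on average in lean tumours. Sox10 was above Sox9 in lean replicate 2 and below it in the other lean tumours, whereas Sox9 was above Sox10 in all 4 obese tumours.

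Among the SoxC genes, Sox4, a factor of progenitors and of epithelial cells responding to TGF-beta (ENSMUSG00000076431, chromosome 13, 28948919 to 28953713), stood at 0.702, 0.593, 16.5 and 0.576 CPM in obese and 31.2, 23.6, 56.6 and 40.0 CPM in lean replicates 1 to 4. All obese tumours lay below all lean ones, but obese replicate 3 was 23.4-fold above the next obese tumour. The log2 change was −3.04 ± 1.21 and did not pass (edgeR adjusted p = 0.0595). Leaving out obese replicate 3 gave −5.92 and a call (edgeR adjusted p = 4.04e-05). Across the 15 alternatives the adjusted p of Sox4 lay between 4.04e-05 and 0.107. The DESeq2 Wald test (adjusted p = 0.00285) and limma-voom (adjusted p = 0.00283) called it lower on all 8 tumours. A long noncoding gene on the other strand, Gm26735, shares 2616 exon bases with Sox4 and had 0 reads. As for Sox8, the strand setting of the counting is not given. How reads of these shared bases, out of 4795 exon bases of Sox4, were counted is therefore not known. Sox12, the weakest activator of the group (chromosome 2, 152393611 to 152398063), stood at 0.0826, 0.0659, 1.51 and 0.456 CPM in obese and 6.51, 18.5, 14.1 and 9.06 CPM in lean replicates 1 to 4. The highest obese tumour was at 0.232 of the lowest lean one. It fell by 4.48 ± 1.01 on the log2 scale (edgeR adjusted p = 0.00718), and its change was −5.85 without obese replicate 3. Sox11, which in the embryo works beside Sox4 in neurons, had 24 reads over the 8 tumours, 0, 2, 0 and 1 in obese and 0, 13, 6 and 2 in lean replicates 1 to 4. A difference in Sox11 was not detectable at this depth.

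The SoxD genes went both ways. Sox13, known in mice from gamma-delta T cells and from the developing nervous system (chromosome 1, 133382303 to 133424377), stood at 1.03, 1.25, 6.50 and 1.44 CPM in obese and 17.6, 32.1, 35.7 and 33.3 CPM in lean replicates 1 to 4. The obese tumours were low throughout, and the log2 change of −3.53 ± 0.67 passed (edgeR adjusted p = 0.00360), with −4.56 without obese replicate 3. Sox6, which acts in muscle, red cells and cartilage (chromosome 7, 115470872 to 116038796), stood at 0, 0.0824, 1.01 and 0.192 CPM in obese and 2.33, 8.11, 2.38 and 2.52 CPM in lean replicates 1 to 4. It was low in both groups, and lean replicate 2 held 3.47 times the lowest lean value. Its log2 change was −3.53 ± 1.11 (edgeR adjusted p = 0.0259). Leaving out obese replicate 2, obese replicate 4 or lean replicate 2 lifted the edgeR adjusted p of Sox6 to 0.0585, 0.0688 or 0.0572 and ended the call. Across the 15 alternatives it lay between 0.00110 and 0.0688, and the change was −5.23 without obese replicate 3.

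Sox5, a SoxD gene like Sox6 and Sox13 (ENSMUSG00000041540, chromosome 6, 143828425 to 144781977), was the exception. It stood at 18.04, 28.9, 18.4 and 35.9 CPM in obese and 9.21, 9.68, 9.74 and 9.75 CPM in lean replicates 1 to 4. The lean tumours were nearly equal, and the lowest obese tumour lay well above them. The means were 25.3 ± 8.67 CPM in obese and 9.59 ± 0.259 CPM in lean tumours (SD, n = 4 each), and Sox5 rose by a log2 change of 1.40 ± 0.25 (edgeR adjusted p = 0.00285). Obese replicate 3, which had kept more of the other members, lay beside replicate 1 at the low end of the obese group for Sox5. Antisense genes lie across Sox5, and 1 of them, Sox5os3, had reads, 5 in all. Another, Sox5os1, shares 1330 exon bases with Sox5 and had 0 reads, with the same limit of an unknown strand setting.

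**Figure D2:**
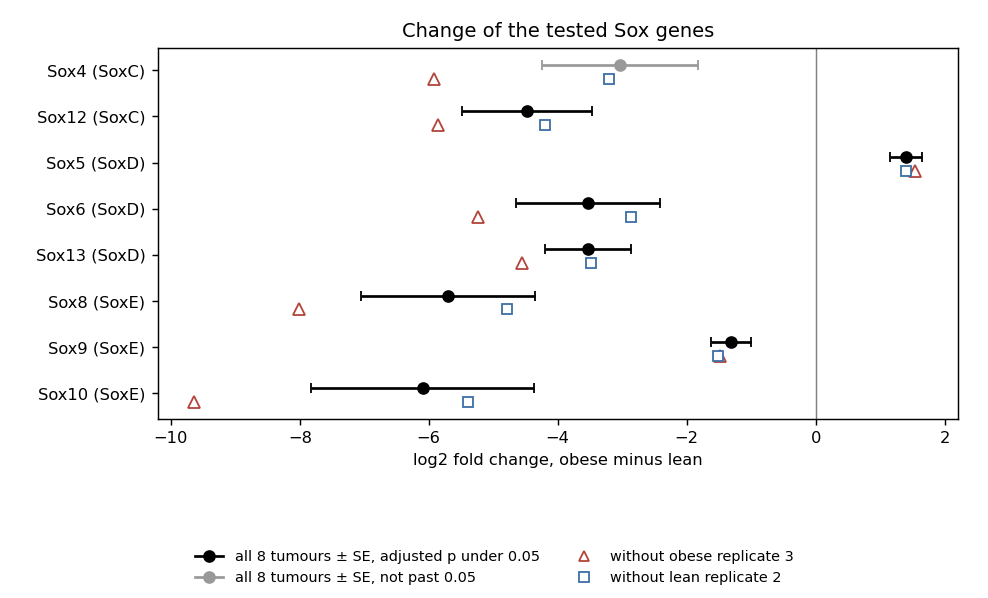
Log2 fold change, obese minus lean, of the 8 tested Sox genes with SE bars from all 8 tumours (circles; black past the threshold, grey not), and the value without obese replicate 3 (red triangles) or without lean replicate 2 (blue squares). Only Sox5 lies above 0, and leaving out obese replicate 3 moves Sox10 to −9.63 and Sox4 to −5.92.

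As length-scaled levels, the summed RNA of the 9 genes was 9.54, 15.7, 24.6 and 13.5 CPM per kb in obese and 54.7, 107, 93.2 and 70.9 CPM per kb in lean replicates 1 to 4. The make-up of this sum changed as well as its size. Sox9 made up 82.5, 84.3, 65.7 and 76.3% of it in obese tumours and 60.2, 14.6, 38.7 and 46.8% in lean tumours. Sox10 made up 0, 0, 6.64 and 0.816% in obese tumours and 15.5, 62.1, 32.2 and 24.7% in lean tumours. The SoxE genes as a group held 73.1 to 84.4% in obese and 73.2 to 83.4% in lean tumours, and within that share the balance of Sox9 and Sox10 differed. Sox5 made up 5.19 to 18.5% in obese and 0.630 to 1.17% in lean tumours. These shares depend on the exon lengths used, and that of Sox5 is the union of many isoforms, 14376 bases.

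**Figure D3:**
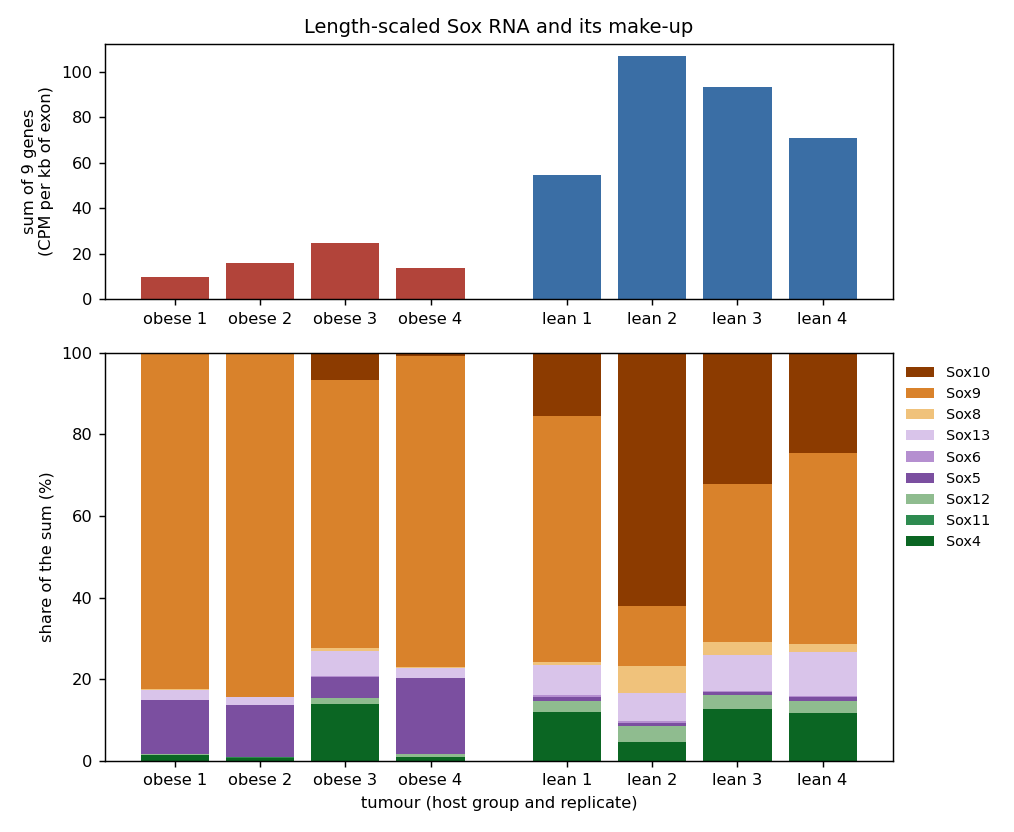
Top: sum of the 9 Sox genes in each tumour, in CPM per kb of exon. Bottom: share of each gene in that sum (%), obese tumours on the left and lean tumours on the right. Sox9 holds 65.7 to 84.3% in obese tumours, and Sox10 holds 15.5 to 62.1% in lean tumours.

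Within the lean group the members did not move as a block. Sox8, Sox10 and Sox12 had the same order, highest in replicate 2 and lowest in replicate 1, with a 16.0-fold span for Sox8 and a 7.81-fold span for Sox10. Sox4 and Sox9 were lowest in replicate 2. Mammary basal markers, 8 genes such as Krt5 and Acta2, summed to 71.4 to 121 CPM in obese tumours and to 611, 3893, 1052 and 310 CPM in lean replicates 1 to 4. Of these 8 genes 7 fell, where 28.4% of all tested genes were lower. The basal sum too was highest in lean replicate 2, where Acta2 alone stood at 2335 CPM. Of the list only Krt14 was highest elsewhere, with 213 CPM in lean replicate 1 against 48.2 CPM in lean replicate 2. The part of basal cells in the Sox10 and Sox8 values was not tested. Skeletal muscle markers, summed over 5 genes, stood at 1.53 to 164 CPM in obese tumours and at 1086, 16.9, 84.9 and 1041 CPM in lean replicates 1 to 4, and their part in the Sox values was not tested.

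The 8 tested members differed in which genes they resembled. Likeness was the root mean square difference in log2 CPM over the 8 tumours after each gene was centred on its own mean, so a lower value is closer. The nearest of 11593 genes to Sox4 were Slc7a4 (0.19), Zfp395 (0.26) and Irx5 (0.31), all with obese replicate 3 well above the other obese tumours. Those nearest to Sox13 were Notch3 (0.22), Nudt14 (0.24) and Fam102a (0.28), and those nearest to Sox9 were Kif9 (0.12), Klc4 (0.15) and Itm2b (0.17). For Sox8 they were Fbln7 (0.27), Fgfr2 (0.35) and Ism1 (0.38), for Sox6 Irs1 (0.23), Zfp354c (0.24) and Aldh1a1 (0.37), and for Sox12 Pdgfrl (0.36), Abat (0.38) and Cdkn2b (0.38). For Sox5 they were Gpr19 (0.11), Cntrl (0.12) and Hs1bp3 (0.15). For Sox10 the closest were Col4a6 (0.68), Il17b (0.69) and Plekhb1 (0.70). Likeness was not scaled to a gene's own range, so its values cannot be compared between members. The range of Sox10 was wide, and its log2 values in obese replicates 1 and 2, with no read, depend on the prior count of 2. The larger values for Sox10 therefore do not show that it lacks a match. Among the members, the closest pair was Sox6 with Sox12 (0.77).

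The rest of the Sox family was mostly scarce. Of 11 other Sox genes, Sox1, Sox3, Sox14 and Sry had no read and only Sox7, Sox17 and Sox18 were abundant enough to be tested. These 3 form the SoxF group of blood and lymph vessels. Sox7 stood at 27.2, 16.3, 13.7 and 24.5 CPM in obese and 2.36, 5.81, 4.84 and 3.44 CPM in lean replicates 1 to 4, and it rose (2.31 ± 0.36, edgeR adjusted p = 0.00164). Sox17 (−1.63 ± 0.35, edgeR adjusted p = 0.00596) and Sox18 (−1.82 ± 0.33, edgeR adjusted p = 0.00303) fell, and without the filter on low counts 4 of the other Sox genes fell. The 5 endothelial markers summed to 118 to 173 CPM in obese and 129 to 291 CPM in lean tumours. Of these, Tie1 (−1.16 ± 0.27) and Emcn (−1.07 ± 0.35) fell and Pecam1, Cdh5 and Kdr did not pass. For comparison, 28.4% of all tested genes were lower and 30.9% higher in obese tumours. Emcn missed the threshold in 6 of the 8 fits that left out a tumour, with its adjusted p highest at 0.0695 without lean replicate 2.

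Cartilage genes that SoxE and SoxD proteins are known to activate were lower in part. Of 11 tested genes of 13, 5 fell and 0 rose, with a median log2 change of −2.77, where 28.4% of all tested genes were lower and 30.9% higher. Without obese replicate 3, 9 fell. Col9a2, a collagen IX chain, stood at 0.0413, 0, 2.61 and 0.0720 CPM in obese and 11.9, 163, 87.6 and 35.2 CPM in lean replicates 1 to 4 (−6.71 ± 1.73, edgeR adjusted p = 0.0125), with the same order of lean tumours as Sox8 and Sox10. Cnmd, a cartilage glycoprotein gene (−8.16 ± 2.11), Col11a2 (−2.02 ± 0.27) and Comp (−2.16 ± 0.46) fell. Cnmd and Col11a1 had the lean order of Col9a2, but other genes of the list did not. Col2a1 and Ucma were lowest in lean replicate 2, where Sox8 and Sox10 were highest. Acan and Comp were highest in lean replicate 1, where Sox8 and Sox10 were lowest. Of the 5, Col9a2, Cnmd and Comp reached the filter minimum in only 1 obese tumour, so they too entered the test through the lean group. Without lean replicate 2, which held 140 CPM of Cnmd, the change of Cnmd was −5.55. Col2a1 and Acan, the best-known joint targets of Sox9, Sox5 and Sox6, stood below 10 CPM in every tumour and did not pass (edgeR adjusted p = 0.534 and 0.721). Chondrocyte markers summed to 1.90 to 9.53 CPM in obese and 13.4 to 142 CPM in lean tumours, and Matn1, a cartilage matrix protein gene, was at 0.1 CPM or less in every tumour.

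Genes known as SoxC targets rose in part, while Sox12 fell. Of 4 tested, 3 rose and 0 fell, with a median log2 change of 1.31, against 30.9% higher over all tested genes. Tubb3, a neuronal tubulin, stood at 56.3, 11.3, 21.9 and 14.4 CPM in obese and 2.14, 0.383, 0.839 and 0.444 CPM in lean replicates 1 to 4 (4.77 ± 0.80, edgeR adjusted p = 0.00226), and every obese tumour lay above every lean one. Ezh2, the histone methyltransferase of Polycomb (1.44 ± 0.20, edgeR adjusted p = 0.00105), and Tead2, a DNA-binding partner of YAP (1.18 ± 0.23, edgeR adjusted p = 0.00390), rose as well. Dcx, a microtubule protein of young neurons, was chosen after its values were seen. It stood at 0 to 0.831 CPM in obese and 1.44 to 3.56 CPM in lean tumours (−3.28 ± 1.31, edgeR adjusted p = 0.0595), and it fell without obese replicate 3, with the DESeq2 Wald test and with limma-voom.

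Regulators that accompany Sox9 and Sox10 in the neural crest were split. Of 8 tested specifier genes of 10, 5 fell and 2 rose, with a median log2 change of −3.28, against 28.4% lower and 30.9% higher over all tested genes. Tfap2a, an activator shared with epidermis (−1.03 ± 0.21, edgeR adjusted p = 0.00440), and the homeobox genes Msx1 (−3.77 ± 0.66, edgeR adjusted p = 0.00267) and Msx2 (−4.82 ± 0.97, edgeR adjusted p = 0.00459) fell. Msx2 was below the filter minimum of 0.210 CPM in all 4 obese tumours, and 3 of the 5 that fell were below it in part or all of them, so these entered the test through the lean group. Ets1 rose (2.14 ± 0.26, edgeR adjusted p = 0.000619), at 254 to 435 CPM in obese and 48.1 to 91.8 CPM in lean tumours. The count of specifiers that rose was 1 without obese replicate 4, without lean replicate 1 or without lean replicate 4. Foxd3, among the most specific of the list, stayed below 0.1 CPM in every tumour, and Zic1 had no read.

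Markers of cells in which Sox10 is normally highest were mostly low in all tumours. Of 9 tested Schwann cell and glial markers of 10, 6 fell and 0 rose, with a median log2 change of −2.12, against the same shares of all tested genes. The list summed to 12.6 to 44.1 CPM in obese and 86.3 to 105 CPM in lean tumours. Mbp, at 25.0 to 47.9 CPM in lean tumours, and Erbb3, at 20.8 to 36.8 CPM, were the most abundant of the list in lean replicates 1, 3 and 4, and S100b was in lean replicate 2. Of the 6, 4 were below the filter minimum in part of the obese tumours, S100b and Ngfr among them, and so entered the test through the lean group. S100b (−6.11 ± 1.67), Ngfr (−5.07 ± 1.05) and Mbp (−1.44 ± 0.34) fell, and S100b was at −3.50 without lean replicate 2. In lean replicates 1 to 4, S100b stood at 0.859, 38.6, 2.91 and 1.63 CPM and Ngfr at 0.663, 8.22, 9.12 and 3.91 CPM. Both were lowest in replicate 1, as Sox10 was. Other markers of the list went the other way. Mbp and Erbb3 were lowest in lean replicate 2, where Sox10 was highest. Gfap was highest in lean replicate 1, at 4.84 CPM, against 0.958 CPM in lean replicate 2. The part of glial cells in the Sox10 values was not tested. Of 6 melanocyte markers, 4 were too scarce to be tested, Dct, Tyr, Tyrp1 and Mlana staying below 1 CPM in every tumour. Mitf, a SoxE target that drives pigment cell fate and is also used in macrophages, rose (1.61 ± 0.36, edgeR adjusted p = 0.00669), and Pmel fell (−1.84 ± 0.52, edgeR adjusted p = 0.0170), though not without obese replicate 4.

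**Figure D4:**
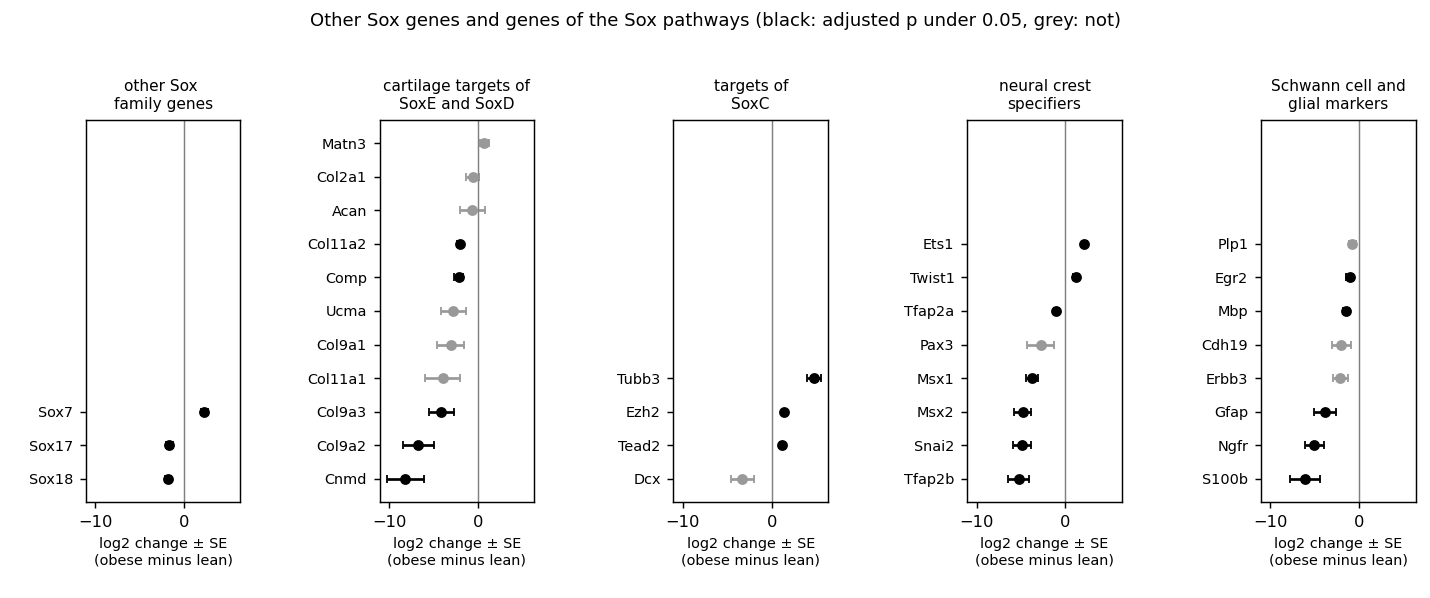
Log2 fold change ± SE, obese minus lean, of tested genes of 5 lists: other Sox genes, cartilage targets, SoxC targets, crest specifiers and 8 of the 9 tested glial markers; black points passed the threshold and grey points did not. Tubb3, Ezh2, Tead2, Sox7, Ets1 and Twist1 are the black points above 0.

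Epithelial markers of the gland fell in part, where 28.4% of all tested genes were lower and 30.9% higher in obese tumours. Luminal progenitor markers (Kit, Elf5, Aldh1a3, Cd14, Csn3) summed to 124, 30.3, 2433 and 54.7 CPM in obese and 6114, 4954, 5986 and 6997 CPM in lean replicates 1 to 4. Csn3 alone made up most of the sum in obese replicate 3 and in every lean tumour. In obese replicate 1 most of it was Cd14, at 117 CPM. Kit (−3.17 ± 0.81) and Aldh1a3 (−3.31 ± 0.74) fell, 2 of 5, and without obese replicate 3 all 5 fell. Aldh1a3 was below the filter minimum in obese replicate 1. Basal markers that fell include Oxtr (−4.37 ± 0.96), Krt5 (−6.20 ± 1.39), Cnn1 (−7.62 ± 1.73) and Krt14 (−4.80 ± 1.28), and without lean replicate 2, without obese replicate 2 or with limma-voom the count was 4 in place of 7. Of those 7, 5 were below the filter minimum in part of the obese tumours. Hormone-sensing luminal markers summed to 12.4 to 47.6 CPM in obese and 59.2 to 117 CPM in lean tumours. Of the 4 tested genes of that list, the estrogen receptor gene Esr1 fell (−1.61 ± 0.48) and Areg, an EGF receptor ligand, rose (3.90 ± 0.87). The count that fell was 3 without obese replicate 3 and 0 without obese replicate 4 or lean replicate 2. The part of a change in epithelial cell number in the Sox values was not tested.

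Host cell markers were measured as well, beside 28.4% of all tested genes lower and 30.9% higher in obese tumours. All 6 T cell markers fell, among them Lck (−1.90 ± 0.40), Cd4 (−1.35 ± 0.29), Cd3g (−2.21 ± 0.51) and Cd3e (−2.19 ± 0.51), and the list summed to 22.2 to 68.4 CPM in obese and 87.1 to 223 CPM in lean tumours. T cells can hold Sox13, and their part in its fall was not tested. Of 5 fibroblast markers, Col3a1 (1.73 ± 0.44) and Pdgfra (1.44 ± 0.37) rose and Dcn (−1.72 ± 0.45) and Lum (−1.32 ± 0.35) fell, with sums of 1031 to 4805 CPM in obese and 830 to 1156 CPM in lean tumours. Of 4 macrophage markers, Cd68 (1.41 ± 0.24), Adgre1 (1.22 ± 0.21) and Mrc1 (2.93 ± 0.57) rose and Csf1r (−0.54 ± 0.20) fell, with sums of 437 to 641 CPM in obese and 237 to 397 CPM in lean tumours. Csf1r missed the threshold in 7 of the 8 fits that left out a tumour, with adjusted p up to 0.107. No adipocyte marker (Adipoq, Cidec, Plin1, Lep) and none of the 5 muscle markers passed on all 8 tumours. Adipocyte sums were 3.54 to 118 CPM in obese and 20.9 to 110 CPM in lean tumours. Without obese replicate 4, the tumour with most adipocyte reads in its group, 3 adipocyte markers fell, and without obese replicate 3, 3 muscle markers fell.

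**Figure D5:**
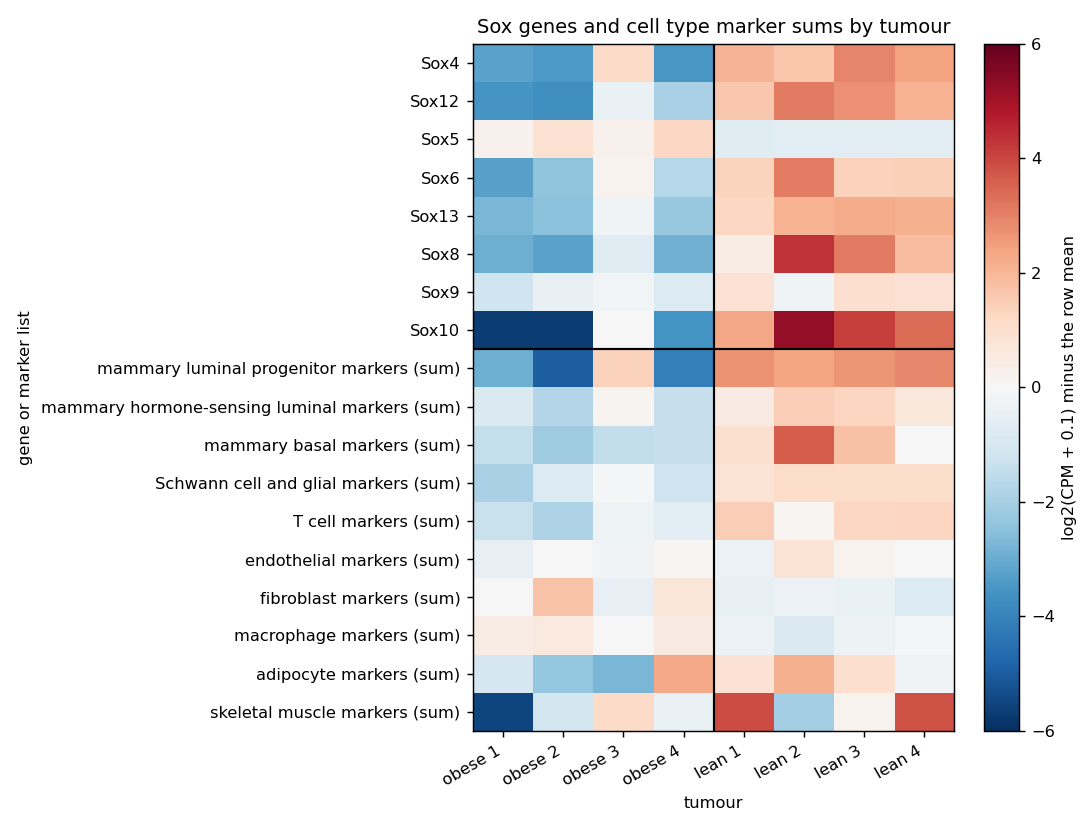
Log2(CPM + 0.1) minus its row mean for the 8 tested Sox genes (top) and the summed CPM of 10 marker lists (bottom), in the obese tumours (left of the line) and lean tumours (right). Obese replicate 3 is closer to the lean tumours for Sox4 and for luminal progenitor markers, and lean replicate 2 is highest for Sox10, Sox8 and basal markers.

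The start regions of these genes differ in base composition. RefSeq promoter windows (GRCm38.p6) were at hand for 7 members, and those for Sox9 and Sox10 were not used here. The 250 bases before the start of Sox12, which fell, and before a start of Sox5, which rose, are shown as the contrast between a window rich in CG pairs and one poor in them. Both genes lie on the minus strand, the Sox12 window at chr2:152398047-152398296 and the Sox5 window at chr6:143947107-143947356, which lies inside the longer Sox5 gene of GENCODE. Capitals mark every match, on either strand, to the CCAAT box, to the GC box GGGCGG, to the E-box CACCTG, to the Sox-type motif ACAAAG or to the TATA box TATAAA.
Sox12: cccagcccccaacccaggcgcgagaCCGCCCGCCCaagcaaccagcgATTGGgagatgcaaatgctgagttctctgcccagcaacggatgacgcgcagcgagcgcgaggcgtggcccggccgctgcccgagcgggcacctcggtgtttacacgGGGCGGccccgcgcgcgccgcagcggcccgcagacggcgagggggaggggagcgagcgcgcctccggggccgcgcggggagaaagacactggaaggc
Sox5: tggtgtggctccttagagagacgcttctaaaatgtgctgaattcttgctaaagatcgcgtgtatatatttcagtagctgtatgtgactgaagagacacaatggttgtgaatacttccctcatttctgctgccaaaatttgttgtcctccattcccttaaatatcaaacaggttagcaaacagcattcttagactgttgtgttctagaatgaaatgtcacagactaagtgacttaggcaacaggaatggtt
The Sox12 window had 35 CG pairs and 74.4% GC, with 3 matches to GGGCGG, of which 2 overlap, and 1 to CCAAT. The Sox5 window had 3 CG pairs and 39.6% GC, and none of these 5 motifs is in its letters. Sox13, which fell, had 31 CG pairs and likewise no match, Sox8 had 18 CG pairs and 2 matches to GGGCGG, and Sox4 had 11 CG pairs and 4 matches to CCAAT. The median over 32851 such windows was 6 CG pairs and 52.4% GC. At least 1 match was found in 33.8% of all windows for CCAAT, 32.7% for GGGCGG, 17.2% for CACCTG, 16.5% for ACAAAG and 12.4% for TATAAA. Sox6 has 6 RefSeq windows with 1 to 10 CG pairs, of which 5 hold ACAAAG.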

How the data were processed

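RNA of 8 tumours was sequenced from TruSeq Stranded libraries, as the labels' protocols state. The deposited table holds whole-number counts per Ensembl gene, 1 column per tumour, not normalized. The submitters' processing notes name STAR 2.5.2b, HTSeq, cutadapt 1.12, bcl2fastq 2.18.0.12 and CASAVA 1.8, with mm10 as the build. The annotation and strand setting of the counting are not given in the sources used here. Columns were matched to tumours by the number in each title. Replicate numbers only name tumours.

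Symbols, coordinates and exon lengths were those of GENCODE M21 on GRCm38, to which mm10 corresponds. Genes were kept by filterByExpr (minimum count 10, minimum total 15), scaled by TMM and tested in 1 fit of all 8 tumours with edgeR's quasi-likelihood F test, adjusted over 14887 genes, threshold 0.05. SE is the log2 change over the square root of F. Log2 CPM used a prior count of 2. The steps were tested on simulated data. Alternatives were other scaling, other filters, DESeq2, limma-voom and leaving out each tumour. Named genes are all members, from each list up to 4 called genes by smallest p, otherwise the 2 with the highest mean CPM, and the 3 genes most like each member with a mean log2 CPM of at least 1. Not every gene so chosen is named, and 1 glial marker is not reported here. The members and lists were chosen with earlier results of these data known. The software was edgeR 4.0.16, DESeq2 1.42.0 and limma 3.58.1 under R 4.3.3.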

Additional observations from a re-analysis of the deposited data

Results flagged for a closer look

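In 7 of the 18 sets of 4 tumours (9 genes in each group), 1 tumour lay far from the other 3 for the spread of the set. The rule flags about 1 set in 20 for independent sets of normal values. These sets share the same 8 tumours and some hold few reads, so that rate does not apply to them. In obese tumours the outlying tumour was replicate 3 each time. It held 16.5 CPM of Sox4, where the next obese tumour had 0.702 CPM, and 0.561 CPM of Sox8, where the next had 0.048 CPM. It also held 4.99 CPM of Sox10 (next 0.336) and 6.50 CPM of Sox13 (next 1.44). In lean tumours, replicate 2 held 8.11 CPM of Sox6, where the next lean tumour had 2.52 CPM, and only 64.7 CPM of Sox9, where the next lowest had 136 CPM. Lean replicate 1 held 9.21 CPM of Sox5 and the next lowest 9.68 CPM, a small gap within a group of nearly equal values.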

How the results depend on the processing

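Each tested member kept its direction in all 15 alternatives, and Sox5, Sox8, Sox9, Sox10, Sox12 and Sox13 also kept their call. Sox4 passed with the DESeq2 Wald test (−3.15), with limma-voom (−4.57) and without obese replicate 3, and its log2 change ran from −5.92 to −2.66 as each tumour was left out. That of Sox6 ran from −5.23 to −2.86, with the calls lost as given above. Sox10 changed by −9.02 with limma-voom. Without the filter on low counts Sox11 did not pass (−2.45 ± 1.23, edgeR adjusted p = 0.129). The number of members that fell was 5 to 7 as each tumour was left out. Of all tested genes, 4598 were higher and 4221 lower, against 3612 and 5145 with upper quartile factors, where the median of all genes was −0.25, and 3690 and 5026 with library size only (−0.22). The median was −0.15 without the filter. No paired analysis was possible because the labels give no replicate number or pairing. In obese replicates 1, 2 and 4, Sox6 and Sox8 had 0 to 8 reads and Sox10 0 to 14. Obese replicate 3 held 52 reads of Sox6, 29 of Sox8 and 258 of Sox10. Their fitted changes rest largely on that tumour, or on few reads where it is left out, and are no bounds.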

Other observations

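The nearest tested protein-coding gene on either side of each member was read off after the results were known, and not all are named here. Over all tested genes 59.2% passed, 30.9% higher and 28.4% lower in obese tumours. Next to Sox5, which rose, Bcat1, a branched-chain amino acid transaminase gene 211858 bases away, rose (edgeR adjusted p = 0.00258), to 207 ± 81.8 CPM in obese and 6.48 ± 5.61 CPM in lean tumours. On the other side Etnk1 rose by 0.56 ± 0.12 (edgeR adjusted p = 0.00609). Next to Sox13, which fell, Etnk2, 1967 bases away, fell as well, to 0.393 ± 0.538 CPM in obese tumours, against 3.83 ± 1.36 CPM in lean tumours (−3.24 ± 0.87, edgeR adjusted p = 0.0141). With an SD above the mean, part of the obese tumours lay below the filter minimum of 0.210 CPM. Etnk2 thus entered the test through the lean group. The other neighbour of Sox13, Snrpe, did not pass (0.50 ± 0.20, edgeR adjusted p = 0.0604). Sox6 lay 601 bases from 1110004F10Rik, which rose (0.64 ± 0.09, edgeR adjusted p = 0.000891). Sox10 lay 3134 bases from Polr2f, an RNA polymerase subunit gene that did not pass (−0.69 ± 0.29, edgeR adjusted p = 0.0685), and 63933 bases from Pick1, which fell (−2.37 ± 0.43, edgeR adjusted p = 0.00294). Beside Sox4, neither Cdkal1 (0.28 ± 0.16) nor Mrs2 (0.31 ± 0.17) passed (edgeR adjusted p = 0.175 and 0.140). Beside Sox12, Zcchc3 fell (−1.67 ± 0.33) and Trib3 rose (1.25 ± 0.44).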
